A study of Mus musculus with 24 samples.

Results

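Fzd1, Sfrp2 and Adgra2 encode proteins that act at the cell surface or outside the cell in Wnt signalling, and their transcripts were followed in 3T3-L1 adipocytes treated with an agonist of PPARδ or of PPARγ. All probes annotated to these 3 genes were taken, which gave 1 probe for each of these 3 of 8389 named genes, among 13964 probes with values, and all 3 probes had a value in each of the 24 columns of the table. The genes were chosen on their response to the agonists and on the difference between the agonists, so these values are given as a description with their errors and with no test. 3T3-L1 is a mouse embryonic fibroblast line that becomes fat-laden adipocytes after induction with dexamethasone, isobutylmethylxanthine and insulin. At day 11 post induction the cultures received, in medium with insulin, the PPARδ agonist GW610742 (6 arrays), the PPARγ agonist GW347845 (6 arrays) or DMSO alone (6 arrays) for 2 days. The labels give 1 μM for GW610742 and 100 μM for GW347845, whereas none of the GW347845 doses in the methods is that high, so the dose behind these arrays is not settled and the agonists are not compared at matched doses. All cultures came from 1 cell line, and the methods describe the arrays as independent hybridizations without stating that each came from a separate differentiation.

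Wnt proteins are secreted ligands that bind Frizzled receptors together with a co-receptor of the Lrp family. In the canonical branch of the pathway this stabilizes β-catenin, which enters the nucleus and activates genes with transcription factors of the Tcf family. In preadipocytes active Wnt signalling holds back the induction of PPARγ and C/EBPα, and so holds back the formation of fat cells. Fzd1 is a Frizzled receptor, which binds Wnt through a cysteine-rich domain on the outside of the cell. Sfrp2 is a secreted protein with a cysteine-rich domain of the Frizzled type, and it can hold Wnt ligands away from their receptors. Adgra2, also known as Gpr124, is an adhesion G protein-coupled receptor that works with the membrane protein Reck as a co-activator of Wnt7 signals in the blood vessels of the brain.

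The promoter of Fzd1 is shown because this receptor had the largest fall of the 3 genes with GW347845. The sequence is the 250 bases before the start of the gene in RefSeq on build GRCm38.p6, at chr5:4758217-4758466 on the minus strand, and capitals mark a match to a motif.
Fzd1: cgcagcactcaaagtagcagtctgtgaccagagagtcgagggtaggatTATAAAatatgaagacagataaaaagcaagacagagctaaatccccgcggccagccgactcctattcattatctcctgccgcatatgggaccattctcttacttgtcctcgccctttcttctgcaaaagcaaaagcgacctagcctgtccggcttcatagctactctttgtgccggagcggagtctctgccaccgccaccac

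Motifs were searched on both strands. They were AGGTCA, a site of nuclear receptors, and its direct repeat with 1 base between the copies, which PPAR binds with its partner RXR. Also searched were ATCAAAG, a site of the Tcf family, and TATAAA, the letters of a TATA box. TATAAA was found in the Fzd1 promoter, as in 12.4% of 32851 promoters of the same length. The match lies toward the end of the window that is far from the start of the gene, so it is not named a TATA box. The Fzd1 promoter held none of the other motifs. The direct repeat was in 0.0335% of promoters, AGGTCA, which lies within it, in 14% and ATCAAAG in 3.21%. The window had 12 CpG dinucleotides and a GC content of 51.2%, where the median promoter had 6 CpG dinucleotides. A match is a description of these letters and not a measured binding site.

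Expression was measured on Illumina mouse WG-6 arrays, on which a brighter probe stands for more of its transcript. The values are on a log2 scale, so a difference of 1 stands for a doubling. The 6 DMSO hybridizations were normalized once with the arrays of each agonist, so every DMSO array has a value beside GW610742 and another beside GW347845. DMSO columns with the same number in both normalizations correlated with r of at least 0.9987 after the mean of each probe was taken off, against at most 0.226 for other numbers. The comparisons therefore share their controls, and each agonist is set only against the DMSO values normalized with it. The number of arrays limits the precision, and since a culture is measured in bulk, fewer cells of a type and less RNA per cell cannot be told apart. As a check of the treatment, Angptl4, a secreted inhibitor of lipoprotein lipase and a known PPAR target, rose with GW610742 by 0.80 (standard error 0.043, adjusted p = 3.4e-09 with limma) and with GW347845 by 0.25 (standard error 0.047, adjusted p = 0.0014). Plin2, a coat protein of lipid droplets, rose by 0.48 (adjusted p = 0.00011) and 0.53 (adjusted p = 0.0065). Pdk4, which restrains pyruvate oxidation, rose by 0.48 with GW610742 (adjusted p = 0.00033) and fell by 0.32 with GW347845 (adjusted p = 0.012).

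With GW347845 all 3 transcripts were lower on every array than on any DMSO array. The Fzd1 values on the 6 GW347845 arrays ran over 7.72, 7.97 and 8.20 (lowest, median and highest), against 8.90, 9.14 and 9.30 on the DMSO arrays. The mean was 7.95 ± 0.19 with GW347845 and 9.13 ± 0.15 with DMSO (SD, n = 6 each), a log2 difference of -1.18 (standard error 0.085, 95% interval -1.36 to -0.99), or 0.443 times the DMSO level. The brightest GW347845 array still lay 0.70 below the dimmest DMSO array, so the groups were far apart for this receptor.

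Sfrp2, the secreted modulator, showed a fall of nearly the same size. Its values were 7.77, 7.93 and 8.11 (lowest, median and highest) with GW347845, against 8.97, 9.10 and 9.17 with DMSO. The mean was 7.94 ± 0.13 with GW347845 and 9.08 ± 0.084 with DMSO (SD, n = 6 each), a log2 difference of -1.14 (standard error 0.061, 95% interval -1.27 to -1.01), or 0.454 times the DMSO level. The gap between the groups was 0.86, the widest of the 3 genes, and the arrays of each group lay close together.

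Adgra2, the Wnt co-activator, had 7.56, 7.85 and 8.08 (lowest, median and highest) with GW347845, against 8.78, 8.90 and 9.21 with DMSO. The mean was 7.85 ± 0.20 with GW347845 and 8.94 ± 0.15 with DMSO (SD, n = 6 each), a log2 difference of -1.10 (standard error 0.089, 95% interval -1.29 to -0.91), or 0.468 times the DMSO level. The groups were again separate, with a gap of 0.70 between them. Ranked by size, the falls of Fzd1, Sfrp2 and Adgra2 were the 5th, the 11th and the 14th of 13755 probes, where all GW347845 arrays lay below all DMSO arrays for 9.05% of probes and 13.5% of probes fell by the limma test. The choice of the 3 genes rests on this contrast, so these ranks are not a result about them.

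**Figure D1:**
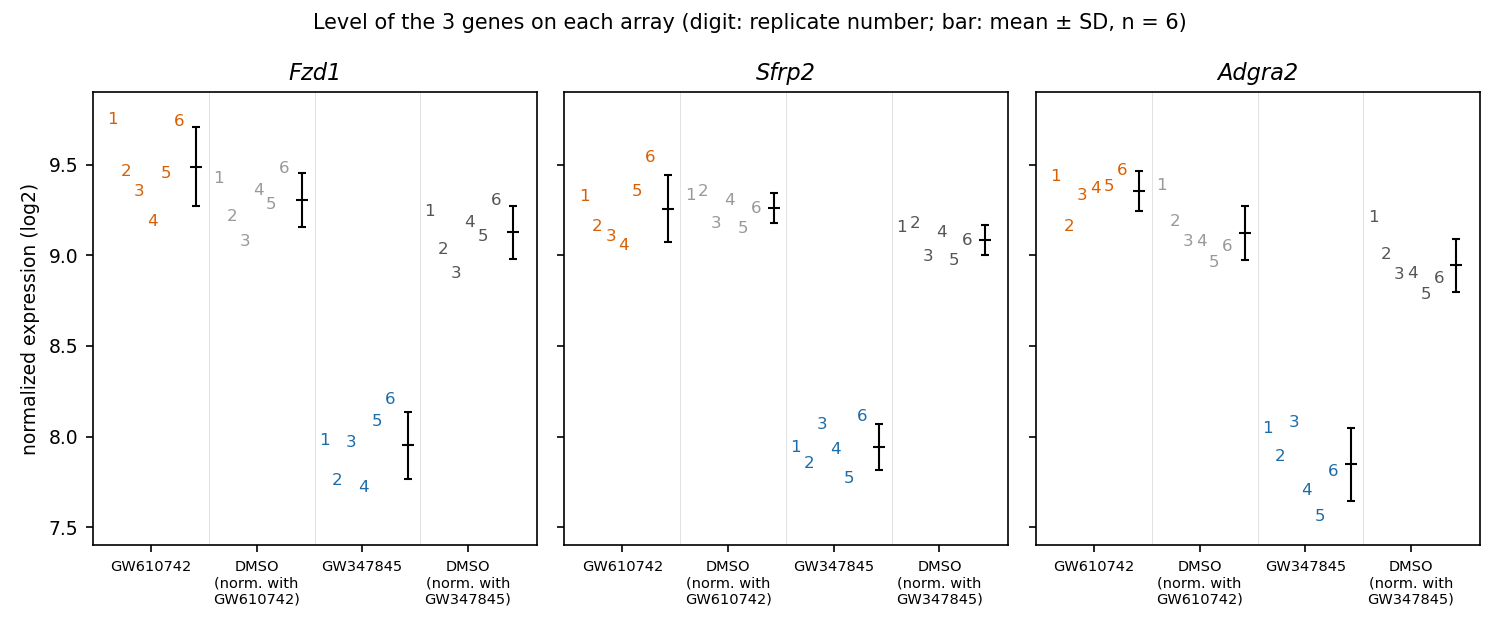
Normalized log2 expression of Fzd1, Sfrp2 and Adgra2 on each array, 1 panel a gene, with the digit giving the replicate number and the bar the mean ± SD of 6 arrays; DMSO appears once for each of its 2 normalizations. The GW347845 arrays lie between 7.56 and 8.20 in all panels, below every DMSO array, whereas the GW610742 arrays overlap those of DMSO.

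With GW610742 the log2 differences of the 3 transcripts from DMSO ran from -0.0055 for Sfrp2 to 0.23 for Adgra2, and for none of them were the groups separate. The probes called in this comparison had a median change of 0.197 in size. Over all 13718 probes, GW610742 and DMSO arrays did not overlap for 6.43%. Fzd1 had 9.18, 9.46 and 9.75 (lowest, median and highest) with GW610742, against 9.08, 9.32 and 9.48 with DMSO. Its mean was 9.49 ± 0.22 with GW610742 and 9.30 ± 0.15 with DMSO (SD, n = 6 each), a log2 difference of 0.18 (standard error 0.087, 95% interval 0.0030 to 0.37). The highest values came from replicates 1 and 6 of GW610742, at 9.75 and 9.74, which were the arrays above all DMSO arrays.

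Sfrp2 had 9.05, 9.24 and 9.54 (lowest, median and highest) with GW610742, against 9.15, 9.28 and 9.35 with DMSO. The means were 9.26 ± 0.18 with GW610742 and 9.26 ± 0.083 with DMSO (SD, n = 6 each), and the log2 difference was -0.0055 (standard error 0.070), with a 95% interval of -0.15 to 0.14. The GW610742 arrays spread to both sides, with 2 above all DMSO arrays and 2 below all of them.

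Adgra2 had 9.16, 9.37 and 9.47 (lowest, median and highest) with GW610742, against 8.96, 9.07 and 9.39 with DMSO. The mean was 9.35 ± 0.11 with GW610742 and 9.12 ± 0.15 with DMSO (SD, n = 6 each), a log2 difference of 0.23 (standard error 0.065, 95% interval 0.097 to 0.37), or 1.18 times the DMSO level. All 6 GW610742 arrays were above the mean of the DMSO arrays, by 0.035 to 0.35, but DMSO replicate 1, at 9.39, reached above 4 of them. The size of this difference depended on the replicates, with 0.09 over replicates 1 to 3 of both groups and 0.38 over replicates 4 to 6.

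The difference between the agonists was taken over the 13509 probes with values in both comparisons, on each treated array minus the mean of its own DMSO arrays. The GW610742 response minus the GW347845 response was 1.36 for Fzd1 (standard error 0.10, 95% interval 1.14 to 1.58), 1.13 for Sfrp2 (standard error 0.082, 95% interval 0.96 to 1.31) and 1.33 for Adgra2 (standard error 0.083, 95% interval 1.15 to 1.51). The DMSO cultures are the same on both sides, and their spread does not enter these errors. The differences correspond to levels 2.57, 2.19 and 2.52 times as high after GW610742 as after GW347845. For each gene the lowest GW610742 array lay above the highest GW347845 array, by 0.81 for Fzd1, 0.76 for Sfrp2 and 0.90 for Adgra2, where 10.5% of all probes had responses separated in this direction. Fzd1 and Adgra2 combined a fall with GW347845 and a small positive difference with GW610742, and Sfrp2 showed the fall alone. Of all probes, 111 (0.822%) lay above every DMSO array with GW610742 and below every DMSO array with GW347845, none of the 3 genes among them, and 0 probes showed the opposite arrangement.

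**Figure D2:**
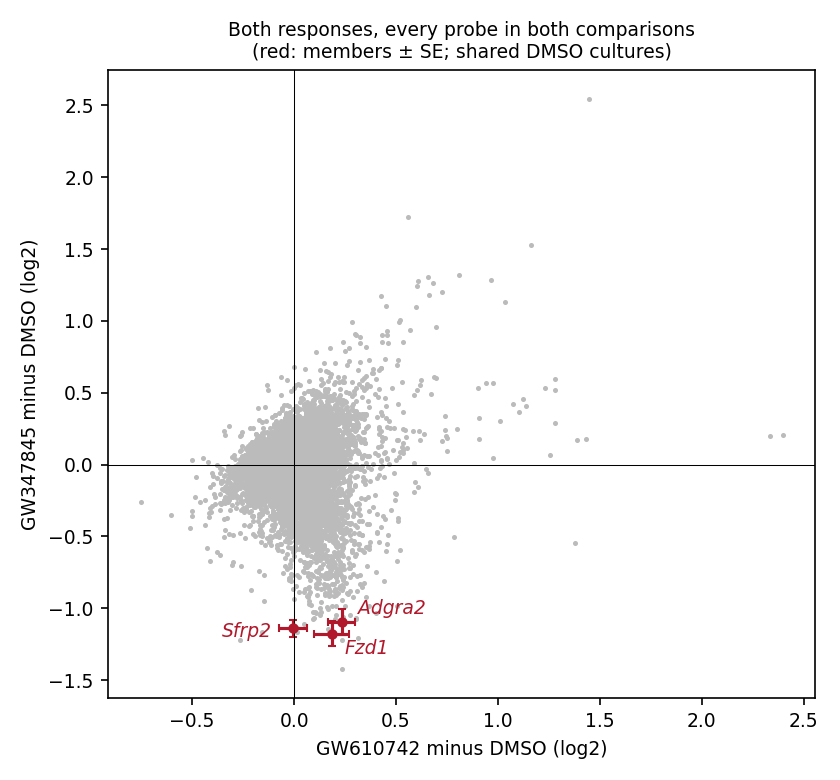
Each grey point is 1 of the 13509 probes, with the log2 difference between GW610742 and DMSO on the horizontal axis and between GW347845 and DMSO on the vertical axis; red points are the 3 genes with their standard errors. Fzd1, Sfrp2 and Adgra2 lie close together at -1.18, -1.14 and -1.10 on the vertical axis and between -0.0055 and 0.23 on the horizontal one, and both axes use the same DMSO cultures.

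The arrays that responded most were not the same for the 3 genes. Relative to the mean of the DMSO arrays, the fall of Fzd1 with GW347845 ranged from -1.41 on replicate 4 to -0.92 on replicate 6. That of Sfrp2 ranged from -1.31 on replicate 5 to -0.97 on replicate 6, and that of Adgra2 from -1.38 on replicate 5 to -0.86 on replicate 3. The GW347845 array of replicate 6 was the one that correlated less with its own group than with DMSO over all probes, with median r of 0.987 and 0.990. Without it the log2 differences were -1.23 for Fzd1 and -1.17 for Sfrp2, and that of Adgra2 was -1.09, so none of them rested on that array.

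Replicates 1 to 3 and 4 to 6 also differed in markers of the mature adipocyte. The mean log2 value of the 11 adipocyte markers measured beside GW347845 was 9.96 to 10.30 on GW347845 replicates 1 to 3 and 8.85 to 9.25 on replicates 4 to 6. It was 9.29 to 9.65 and 8.91 to 8.98 on the DMSO arrays of the same numbers. Of the 11, Fabp4 and Slc2a4 had values beside GW347845 only and passed the detection filter through those arrays. This can raise the GW347845 means against DMSO, so no difference from DMSO is read from them. Relative to the DMSO mean, Adgra2 averaged -0.94 and Fzd1 -1.23 on GW347845 replicates 1 to 3, against -1.25 and -1.12 on replicates 4 to 6. Sfrp2 was level, at -1.13 and -1.15. With each set of 3 taken against DMSO arrays of its own numbers, the log2 difference of Adgra2 was -1.03 and -1.16, and all 3 genes were lower with GW347845 in both sets. The part of the adipocyte markers in these values was not tested.

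Each of the 3 genes rests on a single probe, and for some genes a probe with a large fall had another probe without a called fall. The 100 probes with the largest falls with GW347845 had a median of -0.91, and 34 of their genes had 48 other probes outside these 100. Of those 48 probes, 14 fell, 4 rose and 30 did not pass the test, with a median of -0.09 and a range of -0.49 to 0.52. Col3a1, a fibrillar collagen, had -1.16 on one probe (adjusted p = 4.4e-07) and -0.25 on the other (adjusted p = 0.29), and Meis2, a homeobox transcription factor, had -1.14 and -0.03 (adjusted p = 0.79). For the 100 largest rises with GW347845 the medians were 0.66 for these probes and 0.13 for 31 other probes of 21 genes, and for the 100 largest falls with GW610742 they were -0.34 and -0.11, with 57 other probes. The first probes were chosen for the size of their change. Any other probe that was itself among the 100 was left out, which can only draw the medians apart. The values therefore do not show how often the probes of a gene agree. Fzd1, Sfrp2 and Adgra2 have no other probe with values here, so whether another part of their transcripts would show a fall of this size was not tested.

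**Figure D3:**
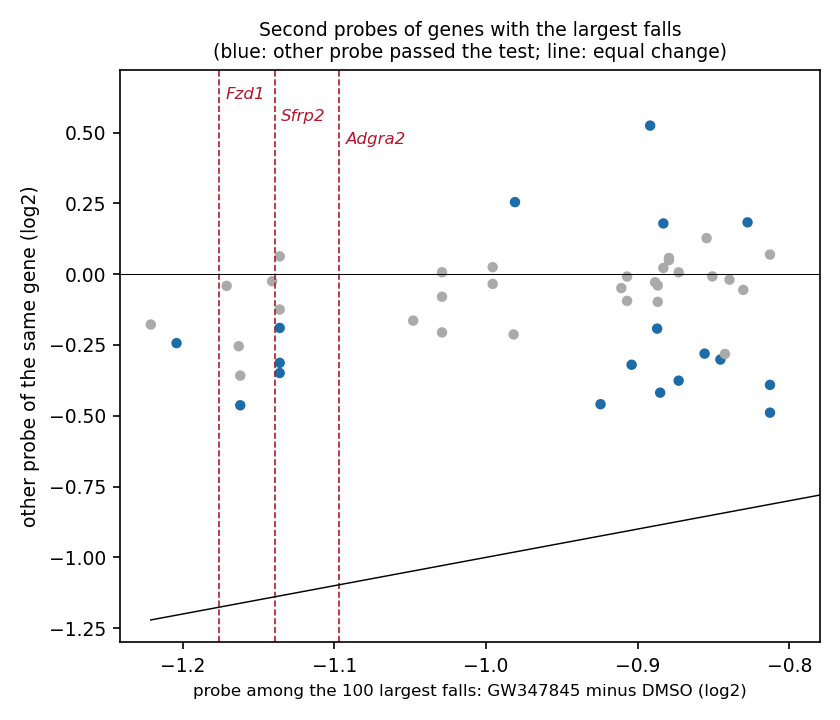
Each point is another probe of a gene whose probe is among the 100 largest falls with GW347845, with that large fall on the horizontal axis and the value of the other probe on the vertical axis (both log2 differences from DMSO); blue points passed the limma test and the black line marks equal change. The 48 points lie between -0.49 and 0.52. All lie above the line by construction, since other probes among the 100 largest falls were left out. Dashed lines mark the falls of the 3 genes, which have 1 probe each.

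The other genes of the pathway were taken from lists by role, and each gene was represented by its brightest probe. Of the 56 other Wnt genes measured beside GW347845, 9 rose, 4 fell and 43 did not pass the test. That is 23.2% called, where 23.9% of all probes were called in this comparison, 10.4% as rises and 13.5% as falls. Without Frat2, which had values in this comparison only, 8 of 55 rose. The median log2 difference was 0.05 for these genes and 0.03 for all probes. Of the 56 measured beside GW610742, 7 rose, 8 fell and 41 did not pass, or 26.8%, where 17.1% of all probes were called, 8.19% as rises and 8.93% as falls. Their median was 0.03, against -0.01 for all probes. Over the 55 genes in both comparisons, 9 responses were higher with GW610742 than with GW347845, 10 were lower and 36 did not pass, or 34.5%, where 29.4% of all probes were called, 14.5% as higher and 14.9% as lower.

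Among the receptors, of the 5 other Frizzled genes measured (Fzd2, Fzd3, Fzd4, Fzd5 and Fzd7) none passed the test with GW347845, with log2 differences between -0.0026 and 0.13. At an unadjusted p under 0.05, which 36.4% of all probes reached in this comparison, 1 of the 5 passed in limma (Fzd3, 0.13, unadjusted p = 0.031), and Fzd3 passed the adjusted test in 4 of 22 alternatives, with adjusted p of 0.0382 to 0.6007. The DMSO means of Fzd3 and Fzd4, 6.78 and 6.80, lay in the range of the 246 probes that had values beside GW347845 and none beside GW610742, 6.30 to 6.82, so small changes there may not be measurable. Whether Fzd1 differed from its relatives was not tested. With GW610742 only Fzd2 passed, and it fell. Fzd2 had a mean of 9.76 ± 0.098 with GW610742 and 9.97 ± 0.12 with DMSO (SD, n = 6 each), a log2 difference of -0.21 (standard error 0.059, adjusted p = 0.022). Fzd2 and Fzd1 thus stood on opposite sides of DMSO with GW610742, although the difference between the genes was not tested. The responses of Fzd2 to the agonists differed by -0.27 (standard error 0.072, adjusted p = 0.011), lower with GW610742.

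Lrp5 and Lrp6, the co-receptors of the canonical branch, did not pass the test against DMSO with either agonist. The DMSO mean of Lrp6 beside GW347845, 6.87, was little above the range of 6.30 to 6.82 given above, so a fall in it may not be measurable. Lrp5 had 0.12 with GW610742 (adjusted p = 0.11) and -0.06 with GW347845 (adjusted p = 0.41). Its responses differed by 0.18 (adjusted p = 0.029), higher with GW610742, and this call was lost when any 1 of 5 arrays was left out. Ptk7, a receptor-like kinase that binds Wnt proteins, rose with GW347845 by 0.17 (standard error 0.058, adjusted p = 0.040) and no longer passed when any 1 of 8 of the arrays was left out. For Reck, the partner of Adgra2, the brightest probe was not the same in both comparisons. The probe brightest beside GW610742 had -0.16 with GW610742 (adjusted p = 0.084) and -0.23 with GW347845 (adjusted p = 0.020). The probe brightest beside GW347845 had -0.10 with GW610742 (adjusted p = 0.20) and 0.0010 with GW347845 (adjusted p = 0.99).

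The closest relative of Adgra2 that was measured moved in the same direction with GW347845. Adgra3, an adhesion receptor of the same subfamily, had 8.31, 8.55 and 8.75 (lowest, median and highest) with GW347845, against 9.08, 9.12 and 9.23 with DMSO. All GW347845 arrays lay below all DMSO arrays, and Adgra3 fell by 0.59 (standard error 0.062, adjusted p = 5.1e-06). With GW610742 it had -0.08 (adjusted p = 0.20), and the responses differed by 0.52 (standard error 0.063, adjusted p = 1.5e-05), higher with GW610742. Adgrl1, a latrophilin and an adhesion receptor of another subfamily, rose with GW347845 by 0.35 (adjusted p = 0.00074).

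Of the extracellular and membrane modulators other than Sfrp2, 5 were measured, namely Wif1, Kremen1, Kremen2, Rspo3 and Apcdd1. None passed the test with GW347845 on its brightest probe, where Sfrp2 had -1.14. The DMSO means of Wif1 and Kremen2, 6.81 and 6.79, lay in the range given above for Fzd3 and Fzd4, 6.30 to 6.82. That of Rspo3, 6.94, was little above it, so a fall in these genes may not be measurable. Whether Sfrp2 differed from the other modulators was not tested. At an unadjusted p under 0.05 Apcdd1 passed, 1 of the 5. Kremen1, a receptor for the Wnt antagonists of the Dickkopf family, fell with GW610742 by 0.21 (standard error 0.055, adjusted p = 0.015) and had 0.05 with GW347845 (adjusted p = 0.63). Apcdd1, a membrane-bound Wnt inhibitor, disagreed between its probes. Its brightest probe fell with GW610742 by 0.30 (adjusted p = 0.024) and had -0.28 with GW347845 (adjusted p = 0.062), whereas its other probe had 0.17 with GW610742 (adjusted p = 0.062) and fell with GW347845 by 0.84 (adjusted p = 1.6e-06). The call of the brightest probe with GW610742 was lost without GW610742 replicate 3 or 5 or without DMSO replicate 4, with adjusted p of up to 0.062.

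Of 19 Wnt ligands listed, Wnt4, Wnt5a and Wnt6 were measured, and none passed the test with either agonist, with log2 differences between -0.08 and 0.07. The count was also 0 at an unadjusted p under 0.05, which 32.2% of all probes reached with GW610742. Wls, the carrier that brings Wnt proteins to the cell surface, rose with GW610742 by 0.17 (standard error 0.050, adjusted p = 0.027) on its brightest probe. Its 3 other probes did not pass, with -0.11 to 0.05, and the call of the brightest probe was lost when any 1 of 5 arrays was left out.

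In the cytoplasm, Ctnnb1, which encodes β-catenin, fell with GW347845. It had 10.89, 11.03 and 11.43 (lowest, median and highest) with GW347845, against 11.63, 11.66 and 11.81 with DMSO, so the groups did not overlap. The mean was 11.07 ± 0.20 with GW347845 and 11.70 ± 0.079 with DMSO (SD, n = 6 each), a log2 difference of -0.63 (standard error 0.078, adjusted p = 2.5e-05). Another Ctnnb1 probe fell by 0.51 (adjusted p = 3.6e-05), and a further one had 0.07 (adjusted p = 0.47). With GW610742 the brightest probe had 0.08 (adjusted p = 0.27), and the responses differed by 0.72 (standard error 0.080, adjusted p = 5.9e-06), higher with GW610742.

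Other cytoplasmic members moved by less than Ctnnb1. Dvl1, which relays the signal from Frizzled, rose with GW347845 by 0.28 (standard error 0.062, adjusted p = 0.0046). Frat2, which binds the kinase GSK3, averaged 7.04 ± 0.26 with GW347845 and 6.68 ± 0.084 with DMSO (SD, n = 6 each). Its probe had values beside GW347845 only and so passed the detection filter through those arrays, and no fold is read from it, although it counts among the 9 rises. The tankyrases, which mark Axin for degradation, were called with different agonists, and whether they differed from each other was not tested. Tnks rose with GW610742 by 0.24 (standard error 0.051, adjusted p = 0.0048) and had -0.12 with GW347845 (adjusted p = 0.22), and Tnks2 rose with GW347845 by 0.30 (standard error 0.054, adjusted p = 0.00086) and had 0.10 with GW610742 (adjusted p = 0.13). Axin1, the scaffold of β-catenin degradation, fell with GW610742 by 0.17 (standard error 0.040, adjusted p = 0.0076). Ctnnbip1, which keeps β-catenin from Tcf factors, fell with GW610742 by 0.22 (standard error 0.048, adjusted p = 0.0047).

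In the nucleus, Tcf7l2, the Tcf factor that partners β-catenin, rose with GW347845. It had 9.09, 9.16 and 9.30 (lowest, median and highest) with GW347845, against 8.62, 8.66 and 8.98 with DMSO, without overlap, and the log2 difference was 0.47 (standard error 0.062, adjusted p = 4.4e-05). With GW610742 Tcf7l2 had 0.10 (adjusted p = 0.23), and the responses differed by -0.37 (standard error 0.050, adjusted p = 3.8e-05), lower with GW610742. Pygo2, a co-activator of β-catenin, rose with GW610742 by 0.21 (adjusted p = 0.0023) and with GW347845 by 0.24 (adjusted p = 0.0018). The Groucho family was split with GW347845. Tle1 fell by 0.20 (adjusted p = 0.0073) on its brightest probe and its 3 other probes did not pass. Tle5 fell by 0.19 (adjusted p = 0.017) while its other probe had -0.09 (adjusted p = 0.11). Tle2 rose by 0.34 (adjusted p = 0.040), and its other probe rose by 0.35 (adjusted p = 0.016). The call of the brightest Tle2 probe was lost when any 1 of 10 arrays was left out. Tle4 had -0.11 (adjusted p = 0.12).

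Among 6 measured genes known as targets of canonical Wnt signalling, Jag1, a Notch ligand, fell with GW347845 (adjusted p = 0.00011), with 6.43 to 6.61 on the GW347845 arrays and 6.67 to 7.01 on the DMSO arrays. Only 0.109% of probes had a GW347845 mean at or below that of Jag1, so the fall ended at the dim end of the scale and its size is not given. With GW610742 Jag1 had 0.06 (adjusted p = 0.51). Ccn5, a matricellular protein, rose with GW610742 by 0.33 (standard error 0.065, adjusted p = 0.0026) and had -0.01 with GW347845 (adjusted p = 0.90). Ccn4, of the same family, fell with GW610742 by 0.19 (adjusted p = 0.017). With GW347845 Ccn4 had -0.25 (adjusted p = 0.082), and the difference between its responses, 0.06, did not pass (adjusted p = 0.65). Ccnd1, the cyclin of the G1 phase, did not pass with either agonist, with 0.23 for GW610742 (adjusted p = 0.066) and 0.12 for GW347845 (adjusted p = 0.095). With GW347845 none of the 6 targets rose and 1 fell (16.7%, where 23.9% of all probes were called). At an unadjusted p under 0.05 in limma 4 of the 6 passed, where 36.4% of all probes did. With GW610742 1 rose and 2 fell (50%, where 17.1% of all probes were called). Apcdd1, counted above among the modulators, is also 1 of these 6 and of the falls with GW610742, and its probes disagreed. In the planar polarity branch, Daam1, which links Dishevelled to actin, rose with GW610742 by 0.36 (standard error 0.061, adjusted p = 0.00095) on its brightest probe, and its other probes had 0.15 (adjusted p = 0.068) and -0.03 (adjusted p = 0.75). With GW347845 these Daam1 probes disagreed. The brightest had -0.22 (adjusted p = 0.051), another rose by 0.20 (adjusted p = 0.0099) and the last had 0.14 (adjusted p = 0.062).

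**Figure D4:**
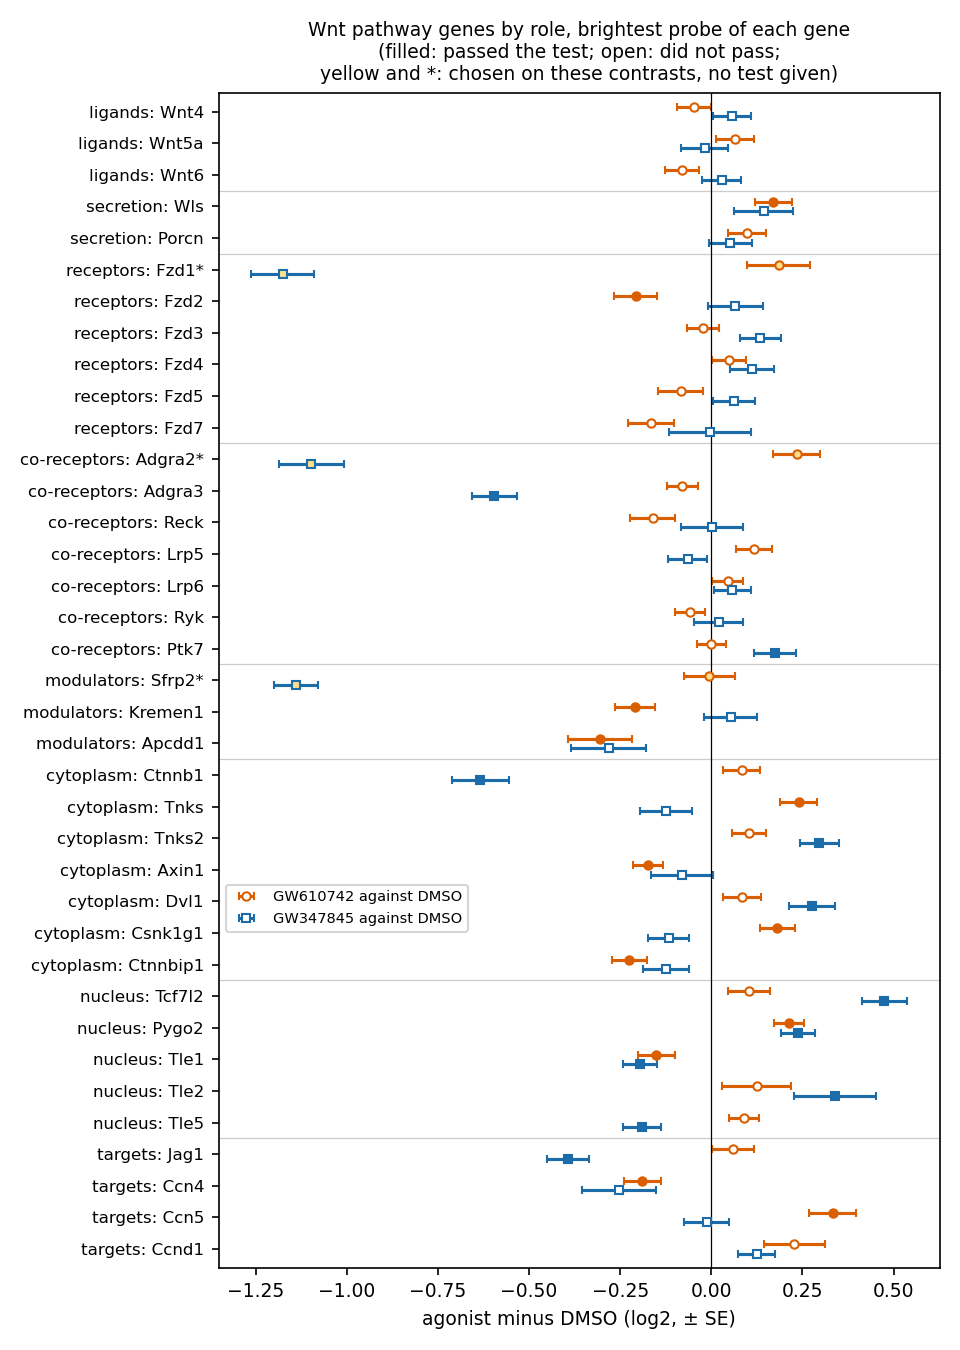
Log2 difference from DMSO with its standard error for selected Wnt genes by role, with circles for GW610742 and squares for GW347845; filled points passed the limma test, open ones did not, and yellow points are the 3 chosen genes, which have no test. Fzd1, Adgra2 and Sfrp2 lie at -1.18, -1.10 and -1.14 with GW347845, left of Ctnnb1 at -0.63 and Adgra3 at -0.59.

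Markers of the cell types that the cultures could hold were set beside these values. The cultures carried the adipocyte hormone Adipoq, with means of 13.39 ± 0.39 for GW610742 and 13.05 ± 0.45 for DMSO (SD, n = 6 each), and 13.24 ± 0.88 for GW347845 and 12.88 ± 0.44 for DMSO normalized with it. The other listed adipocyte markers differed widely in level on the latter DMSO arrays. Lpl (14.09), Pnpla2 (11.52), Cidec (10.43), Pparg (9.61) and Dgat2 (8.53) were brighter. Plin1 (7.01), Lep (7.01), Lipe (6.93), Slc2a4 (6.59) and Fabp4 were dim, so small changes there may not be measurable. Of 11 adipocyte markers measured with GW347845, 1 passed the test (9.09%, where 23.9% of all probes were called). This was Fabp4, a fatty acid binding protein, with 6.92 ± 0.42 for GW347845 and 6.39 ± 0.058 for DMSO (SD, n = 6 each), which like Slc2a4 had values beside GW347845 only and passed the detection filter through those arrays. Of the other 9, 0 were called by limma and 3 passed at an unadjusted p under 0.05. Of 9 measured with GW610742, 1 rose (11.1%, where 17.1% of all probes were called) and none fell. The gene that rose was Cidec, a lipid droplet protein, by 0.81 (adjusted p = 0.0496). With GW347845 Cidec averaged 11.75 ± 1.35, against 10.43 ± 0.72 for DMSO (SD, n = 6 each), higher but not called. The mean log2 value of the 9 markers was 9.65 to 10.42 on the GW610742 arrays and 9.57 to 10.48 on the DMSO arrays. Of 15 measured markers of preadipocytes and fibroblasts, out of 18 listed, none rose and 4 fell with GW347845, namely Col3a1, S100a4, Gata3 and Tgfbi, which is 26.7%, where 23.9% of all probes were called and 13.5% fell. The other probes of Col3a1 and Tgfbi did not pass, with -0.25 (adjusted p = 0.29) and -0.05 (adjusted p = 0.65). Gata3 ended at a mean of 6.82, within the dim range of 6.30 to 6.82 given above, so the size of its fall may not be measurable. The median of the list was 0.05. The mean log2 value of the 15 markers was 10.20 to 10.45 on the GW347845 arrays and 10.37 to 10.48 on the DMSO arrays. These means take in the Col3a1 probe, at -1.16, and the S100a4 probe, which had the largest falls of the list. S100a4, a calcium-binding protein of fibroblasts, fell with GW347845 by 0.71 (standard error 0.092, adjusted p = 4.3e-05) and rose with GW610742 by 0.36 (standard error 0.064, adjusted p = 0.0015). Dlk1, the preadipocyte factor, had 0.05 with GW347845 (adjusted p = 0.50). Its DMSO mean there was 14.37, and 99.6% of probes were at or below it, so a change at this bright end may not be measurable. With GW610742 the fibroblast list had 1 gene that rose and 2 that fell (20%, where 17.1% of all probes were called), and its mean was 10.57 to 10.62 on the GW610742 arrays and 10.52 to 10.63 on the DMSO arrays. The part of residual preadipocytes in the falls of Fzd1, Sfrp2 and Adgra2 was not tested. Of 6 macrophage markers only Cd14 was measured and of 5 myofibroblast markers only Acta2. Neither passed with either agonist on its brightest probe, although Cd14, at -0.10 with GW347845, had an unadjusted p of 0.040 in limma. Another Acta2 probe fell with GW347845 by 0.28 (adjusted p = 0.0037). Its remaining probes had -0.22 (adjusted p = 0.11) and -0.07 (adjusted p = 0.57).

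The genes most like each of the 3 were those with the highest Pearson's r over the 18 arrays, each less its DMSO mean and with the DMSO arrays averaged over both normalizations, given as a description with no test. For Fzd1 these were Tmem209 (r of 0.986), Rer1 (0.983), Lpar1 (0.983), Scfd1 (0.982) and Chmp5 (0.982). Lpar1, a receptor for lysophosphatidic acid, had -0.54 with GW347845 on this probe and -0.68 on its other probe. For Sfrp2 they were Fam114a1 (0.984), Zfp979 (0.983), Ern1 (0.981), Adam9 (0.980) and Tbc1d19 (0.979), of which Adam9, a membrane protease, had -1.07 with GW347845 and 0.10 with GW610742. For Adgra2 they were Npc1 (0.988), Idh2 (0.988), Tuba1a (0.987), Meis2 (0.985) and Vhl (0.982), of which Idh2, the mitochondrial isocitrate dehydrogenase, had -1.05 and 0.13. The lowest r was -0.926 for Fzd1 and -0.921 for Sfrp2, both with Cmpk1, a nucleotide kinase that had 0.38 with GW347845, and -0.933 for Adgra2, with Hdgf, a growth factor. The step between the GW347845 arrays and the rest enters each of these r values. Of the 15 genes with the highest r, 7 had other probes. With GW347845 another probe fell in 4 of the 7, namely Lpar1, Zfp979 by 0.42 (adjusted p = 0.0042), Npc1 by 0.33 (adjusted p = 0.022) and Tuba1a by 0.24 (adjusted p = 0.037). In Tmem209, Rer1 and Meis2 the other probes had between -0.10 and 0.06 and did not pass, and neither did a further Npc1 probe, at 0.0081.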

How the data were processed

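RNA of 18 cultures was hybridized to Illumina mouse WG-6 arrays, 6 arrays for each treatment. The deposited values are log2 expression that the authors made with lumi by variance stabilization and quantile normalization, once for the arrays of each agonist and DMSO, after keeping probes detected at a p of 0.01 in at least 1 sample. They were used as deposited. Of 13964 probes, 12157 carry 1 gene symbol, 4 several and 1803 none, by the platform annotation. Comparisons were fitted in R 4.3.3 with limma 3.58.1 over all probes (13718 for GW610742, 13755 for GW347845, 13509 for the difference between agonists), two-sided, with Benjamini-Hochberg adjustment at 0.05, and tested on simulated data. Since separate differentiations are not stated, p-values reflect only the variation among these arrays, which may be technical. Genes were represented by their brightest probe over the comparison.

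The 3 genes and the gene lists were chosen with earlier results of these data known. The text names the 3 genes, for each list called genes with the smallest adjusted p, up to 3 a contrast and direction, and up to 1 gene not called, the 5 genes most and 3 least like each of the 3, and PPAR targets. Genes outside this, and probes that disagree, were named after their values were seen. Alternatives were the replicate number as a block, median centring, cyclic loess, a trended robust prior, array weights, a filter on the dimmest 25% of probes, the mean of a gene's probes, the methods' t-test, each set of 3 replicates, and leaving out each array. Promoters came from RefSeq, GRCm38.p6, and matched by symbol for 2 of the 3 genes, of which the window of Sfrp2 lies within the annotated span of the gene and was not used here. The plots used Python 3.11.15 and matplotlib 3.10.9.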

Additional observations from a re-analysis of the deposited data

Results flagged for a closer look

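In 11 of 134 groups of 6 arrays examined, over 34 genes, or 8.21%, 1 array stood apart from the others by more than Dixon's critical value for the gap over the range. Chance flags about 1 in 20 such groups, and the DMSO arrays count again in each normalization. DMSO replicate 2 was the highest DMSO array for Dvl1, with 8.78 beside GW610742 and 8.61 beside GW347845, for Tnks2, with 10.43 and 10.25, for Tcf7l2, with 9.16 and 8.98, and for Scrib, a polarity scaffold, with 7.96 and 7.81. Each of these genes rose with GW347845. DMSO replicate 4 was the highest for Adgra3, with 9.41 and 9.23. GW347845 replicate 3 was the lowest for Pygo2, with 10.42, where the other GW347845 arrays lay between 10.61 and 10.67.

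For Adgra2 all 6 GW610742 arrays lay above and all 6 GW347845 arrays below the mean of their DMSO arrays, although the GW610742 and DMSO arrays overlapped. The difference between the responses was 1.33. It was not tested, since the gene was chosen on these values.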

How the results depend on the processing

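The falls of Fzd1, Sfrp2 and Adgra2 with GW347845 and their differences between agonists kept their direction under all 20 and 26 alternatives, with -1.23 to -1.13, -1.17 to -1.10 and -1.16 to -1.03 for the falls and 1.28 to 1.44, 1.07 to 1.20 and 1.12 to 1.54 for the differences. With GW610742 Fzd1 had 0.09 to 0.28, Sfrp2 -0.09 to 0.08, of which 8 had the other sign, and Adgra2 0.090 over replicates 1 to 3 and 0.38 over replicates 4 to 6. The difference between agonists for Adgra2 was 1.12 and 1.54 over these sets. GW610742 against DMSO gave 283 called probes over replicates 1 to 3, 1377 over replicates 4 to 6 and 4143 with the methods' t-test unadjusted, where all arrays gave 2349 with limma. The Wnt genes called were 0 and 7 over these sets, where all arrays gave 15. For GW347845 against DMSO the Wnt genes called were 20 with the unadjusted t-test, where limma gave 13. Smaller sets hold fewer arrays. After Benjamini-Hochberg adjustment the methods' t-test called 1620 probes for GW610742, 2953 for GW347845 and 3599 for the difference, and 0 of the Wnt ligands with either agonist and 0 of the Frizzled genes and modulators measured with GW347845. Apcdd1 turned round in the difference between agonists, with 0.49 (adjusted p = 0.00079) for the mean of its probes and -0.02 for the brightest.

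Leaving out each array in turn gave 1672 to 2456 called probes for GW610742, 2654 to 4013 for GW347845 and 3262 to 4397 for the difference, and 12 to 17, 9 to 15 and 13 to 20 Wnt genes. Of the called Wnt genes, 11 of 15, 9 of 13 and 12 of 19 passed whichever array was left out, the exceptions being Apcdd1, Csnk1g3, Tle1 and Wls with GW610742, Csnk1g3, Ptk7, Scrib and Tle2 with GW347845, and Fzd3, Lrp5, Prickle2, Ptk7, Pygo1, Scrib and Tle4 in the difference.

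Same-numbered arrays did not deviate together throughout (r of -0.23 to 0.29 with GW610742 and -0.015 to 0.548 with GW347845, own number best for 1 and 3 of 6), so the numbers were not taken as pairs. With the replicate number as a block 2263, 3751 and 3890 probes were called. With the block, Tle1 with GW610742 (adjusted p = 0.060), Csnk1g3 with GW347845 (adjusted p = 0.069) and Fzd3 in the difference (adjusted p = 0.054) no longer passed. With GW347845 Ccn4 (-0.25, adjusted p = 0.024) and Daam1 (-0.22, adjusted p = 0.0048) then fell and Csnk1d (0.20, adjusted p = 0.039) rose. Reck (-0.16, adjusted p = 0.044) fell with GW610742, and no other call of the Wnt genes changed. These calls are for the brightest probes, and another Daam1 probe rose with GW347845. Detection on single arrays was not analysed here, which limits statements on low values.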
